A study of Mus musculus with 12 samples.

Results

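H19 and 9 other imprinted genes of growth control were followed through pancreatic tumours of mice that differed in Cdh11 genotype and in gemcitabine treatment. The set holds H19, Igf2, Igf2r, Dlk1, Meg3, Peg3, Plagl1, Cdkn1c, Mest and Grb10, picked by name, and all 10 of 10 were found among the 52636 genes of the count tables and among the 24065 genes tested. The genes were picked with results of these data in view, and which values were looked at was not recorded. Their levels and fold changes are therefore given as descriptions, and a low p-value among them supports nothing about the family.

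The tumours were ductal adenocarcinomas of KPC mice, a genetically engineered model of pancreatic cancer, on a mixed C57BL/6 and 129 background. There were 4 groups of 3 mice: KPC/CDH11+/- with gemcitabine, KPC/CDH11+/+ with gemcitabine, KPC/CDH11+/- untreated and KPC/CDH11+/+ untreated, so every mouse carried the KPC alleles. Cadherin 11, the product of Cdh11, joins fibroblasts to each other, and gemcitabine is a nucleoside analogue that blocks DNA synthesis. The labels give neither age and sex nor dose and schedule, and neither the Cre driver nor the cells in which the Cdh11 allele is lost. Each library is total RNA, depleted of ribosomal RNA, from snap-frozen tumour tissue of 1 mouse. Below, +/- mice are called heterozygous and +/+ mice wild-type.

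Imprinted genes are transcribed mainly from a single parental copy, set by DNA methylation that the egg or the sperm lays down. Paternally expressed genes such as Igf2, Dlk1, Peg3, Plagl1 and Mest and maternally expressed genes such as H19, Igf2r, Meg3, Cdkn1c and Grb10 act on fetal growth, the maternal ones often as brakes. Many of them are abundant in the fetus and placenta and silenced in most tissues after birth. The counts do not separate the parental copies, so what follows concerns total RNA of each gene.

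H19 is a long noncoding RNA at GRCm38 chr7:142575529-142578143 on the minus strand, and an exon of it holds the hairpin of miR-675. Igf2, the growth factor that shares enhancers with H19, lies upstream on the same strand (chr7:142650766-142666816) and carries miR-483 in an intron. Mest, a gene of the hydrolase fold family on chr6:30723547-30748465, carries miR-335 in an intron. The mature forms, taken from RefSeq on GRCm38.p6, are shown because these RNAs are made from the transcripts that the counts measure. Capitals mark the seed, bases 2 to 8 from the 5′ end, and no seed is shared among the 6.
mmu-miR-675-5p: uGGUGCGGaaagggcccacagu
mmu-miR-675-3p: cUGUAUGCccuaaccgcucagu
mmu-miR-483-5p: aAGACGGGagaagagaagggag
mmu-miR-483-3p: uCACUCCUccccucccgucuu
mmu-miR-335-5p: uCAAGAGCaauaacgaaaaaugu
mmu-miR-335-3p: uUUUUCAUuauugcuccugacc
The rows of Mir675 and Mir483 held 0 counts in all 12 libraries and that of Mir335 held 0 or 1. The libraries are of total RNA and were not made for small RNAs, so the rows give the hairpin genes as counted and no level of the mature miRNAs.

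Promoter windows from 250 bases before to 50 bases after a start were found in RefSeq (GRCm38.p6) for 8 of the 10 genes, 15 windows in all. They were searched on both strands for GGGGCCCC, the core of the element read by the zinc finger protein PLAGL1 (in 1.08% of 32851 windows of all genes), for AANATGGC, read by YY1 (6.05%), and for TATAAA, the TATA box (13.6%). GGGGCCCC was found in 1 of the 15 windows, that of Peg3, and AANATGGC in 0. TATAAA was found in 1 window, the first of Meg3, on both strands in overlapping letters that start 29 and 25 bases before the start. These 2 windows are shown with the matches in capitals, Peg3 (minus strand, chr7:6730370-6730669) because Plagl1 is itself a member and Meg3 (plus strand, chr12:109540746-109541045) because its neighbours are described below.
Peg3: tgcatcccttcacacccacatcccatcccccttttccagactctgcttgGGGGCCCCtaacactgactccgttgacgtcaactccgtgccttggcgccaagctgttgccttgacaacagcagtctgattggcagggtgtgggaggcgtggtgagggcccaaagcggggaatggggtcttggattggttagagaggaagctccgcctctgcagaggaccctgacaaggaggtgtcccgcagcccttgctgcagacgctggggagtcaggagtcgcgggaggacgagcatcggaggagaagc
Meg3: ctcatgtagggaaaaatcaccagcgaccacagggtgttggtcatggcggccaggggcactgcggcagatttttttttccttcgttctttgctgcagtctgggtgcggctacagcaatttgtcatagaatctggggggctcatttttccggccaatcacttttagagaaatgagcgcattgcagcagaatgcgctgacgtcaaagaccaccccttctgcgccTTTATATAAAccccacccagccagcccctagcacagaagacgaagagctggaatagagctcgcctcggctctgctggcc
A match is a run of letters and says nothing about binding in these tumours.

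The libraries held 39388328 to 56559413 counts, and the biological coefficient of variation between mice was 46.4%. Xist, which coats the inactive X chromosome in females, was high in 0 of 3 gemcitabine-treated heterozygous, 3 of 3 gemcitabine-treated wild-type, 1 of 3 untreated heterozygous and 2 of 3 untreated wild-type tumours, and Y-linked genes were expressed in the others. Among treated mice, sex chromosome genes and genotype therefore cannot be told apart. Levels below are in CPM, read counts scaled to a common library total, here with the effective (TMM) library sizes. Cdh11 itself had 148, 115 and 73.7 CPM in untreated heterozygous tumours, against 225, 283 and 165 CPM in untreated wild-type tumours. In treated tumours its level was 109, 141 and 72.0 CPM in heterozygous and 142, 62.2 and 123 CPM in wild-type mice, so that the targeted gene did not separate the treated genotypes, which are named by their labels. Fibroblast genes were expressed in every tumour, with none of the 10 markers at 0 in any library, and epithelial markers summed to at least 2884 CPM.

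Per kilobase of exon, H19 was on average the most abundant of the 10 genes and Dlk1 the least. The mean over 12 tumours was 37.3 CPM per kb for H19, 22.8 for Igf2r, 8.79 for Grb10, 6.74 for Igf2, 5.67 for Meg3, 4.79 for Peg3, 4.54 for Cdkn1c, 1.86 for Mest, 0.987 for Plagl1 and 0.254 for Dlk1. Igf2r lay above Grb10 in 12 of 12 tumours, Mest above Plagl1 in 11 and Plagl1 above Dlk1 in 10. The other neighbours in this order changed places more often. H19 lay above Igf2r in only 5 of 12 tumours, Grb10 above Igf2 in 9, Igf2 above Meg3 in 7, Meg3 above Peg3 in 8, Peg3 above Cdkn1c in 4 and Cdkn1c above Mest in 9.

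The genes also differed in how much they varied. From the lowest to the highest tumour, Igf2 spanned 341-fold, H19 62.5-fold and Peg3 43.9-fold, while Igf2r spanned 2.40-fold. Igf2r encodes the receptor that takes up IGF2 for degradation in lysosomes and also carries lysosomal enzymes. The highest value of 6 of the 10 genes came from the same library, gemcitabine-treated wild-type mouse 1, and that of another 3 from untreated wild-type mouse 3. Dlk1, a membrane protein of the Notch ligand family, had 0 counts in gemcitabine-treated wild-type mouse 2 and between 4 and 325 counts in the others, so its fold changes rest on few reads.

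**Figure D1:**
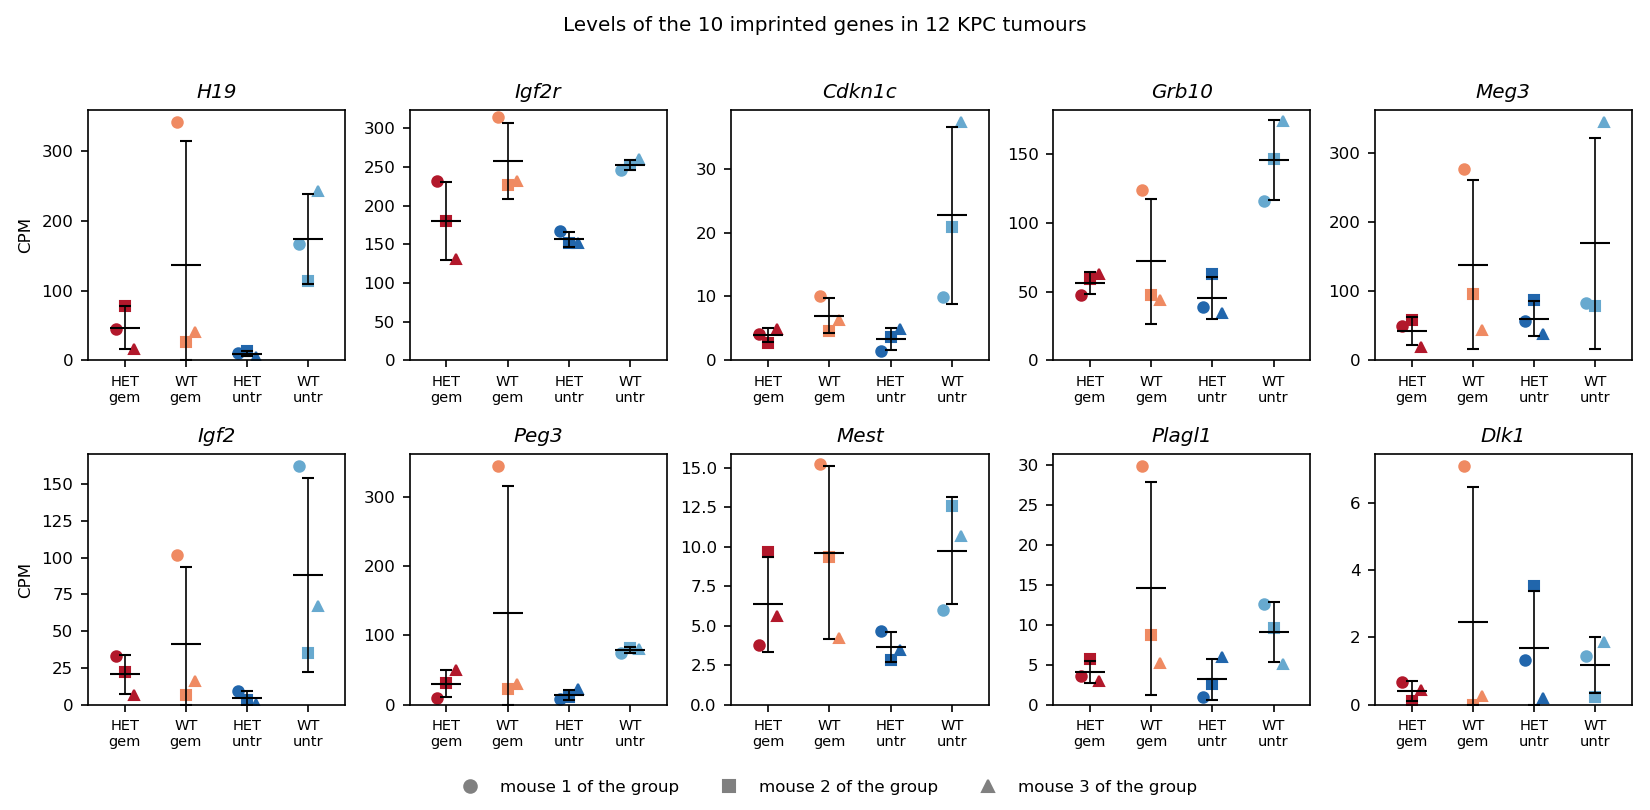
Levels of the 10 imprinted genes in CPM (vertical axes, 1 panel a gene, each from 0) in gemcitabine-treated heterozygous and wild-type and untreated heterozygous and wild-type tumours. Points are single mice, horizontal lines are means of 3 mice and bars are 1 SD, drawn from 0 upward where they would cross it. Untreated heterozygous tumours sit below all untreated wild-type tumours for 7 genes, and mouse 1 of the treated wild-type group stands far above mice 2 and 3 for H19, Igf2, Peg3 and Plagl1.

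Untreated heterozygous tumours were first set against untreated wild-type tumours, the comparison that asks what the Cdh11 allele does without drug. H19 had 10.7, 13.3 and 5.46 CPM in the heterozygous tumours, against 166, 113 and 243 CPM in the wild-type tumours. Every heterozygous value lay below every wild-type value, and the mean was 9.81 ± 3.99 CPM in heterozygous and 174 ± 65.0 CPM in wild-type tumours (SD, n = 3 each). On the log2 scale the difference was -4.15 ± 0.96 (SE), with a 95% interval of -6.26 to -2.04.

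Igf2 showed the same order of groups. It had 9.51, 3.07 and 0.477 CPM in heterozygous tumours, against 162, 35.1 and 67 CPM in wild-type tumours, a log2 fold change of -4.34 ± 1.26. The groups did not overlap, and within each group the values still spread by several fold. Igf2r had 168, 151 and 151 CPM in heterozygous tumours and 247, 253 and 260 CPM in wild-type tumours. The spread within the groups was the smallest of the set here, with coefficients of variation of 6.09% and 2.61%, and the log2 fold change was -0.69 ± 0.22. Grb10, an adaptor that binds the insulin and IGF1 receptors and damps their signal, had 38.6, 62.9 and 34.6 CPM in heterozygous and 116, 147 and 174 CPM in wild-type tumours. Its groups did not overlap either, and the log2 fold change was -1.68 ± 0.39.

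Cdkn1c, which encodes the cyclin-dependent kinase inhibitor p57, had 1.52, 3.67 and 4.89 CPM in heterozygous tumours, against 9.90, 20.8 and 37.3 CPM in wild-type tumours. The log2 fold change was -2.75 ± 0.56, with no overlap. Peg3, a large zinc finger protein, had 7.86, 11.1 and 22.5 CPM in heterozygous tumours and 74.3, 81.3 and 80.7 CPM in wild-type tumours (log2 fold change -2.51 ± 0.95). The 3 wild-type values were nearly equal, and the heterozygous values were all below them. Mest had 4.68, 2.83 and 3.46 CPM in heterozygous and 6.00, 12.6 and 10.7 CPM in wild-type tumours, again without overlap, at a log2 fold change of -1.42 ± 0.50.

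The remaining 3 genes overlapped between these groups. Meg3, a long noncoding RNA of chromosome 12, had 56.4, 87.2 and 37.7 CPM in heterozygous tumours, against 83.1, 79.2 and 345 CPM in wild-type tumours. Its log2 fold change of -1.49 ± 0.75 rests largely on untreated wild-type mouse 3 and was -0.43 without it. Plagl1, the zinc finger protein with growth-arrest activity, had 0.922, 2.53 and 5.96 CPM in heterozygous and 12.6, 9.59 and 5.09 CPM in wild-type tumours. Dlk1 was the exception in direction, with 1.34, 3.54 and 0.199 CPM in heterozygous and 1.46, 0.231 and 1.85 CPM in wild-type tumours, a log2 fold change of 0.52 ± 1.53 that was -0.62 without untreated heterozygous mouse 2.

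In all, 9 of the 10 genes had lower means in untreated heterozygous tumours, and 7 of 10 lay lower without overlap, as did 8.41% of all genes tested. The median log2 fold change of the 10 was -1.61, against 0.04 over all genes tested. None of the 10 passed the adjusted threshold of 0.05 over all genes by edgeR, where 0.0166% of genes passed, and their adjusted p-values lay between 0.15 and 0.93. At an unadjusted p below 0.05, 7 of the 10 were lower, as were 6.65% of all genes. By DESeq2, which called 2.92% of all genes at an adjusted p below 0.05, H19, Igf2, Cdkn1c and Grb10 passed.

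The count of genes without overlap was 7 or 8 when any single untreated library was left out. The groups were also compared within the sex chromosome classes. Among Xist-high tumours, H19 had 10.7 CPM in the heterozygous mouse, against 166 and 243 CPM in the wild-type mice. Among tumours with Y-linked expression, it had 13.3 and 5.46 CPM in the heterozygous mice and 113 CPM in the wild-type mouse. The tumour at 5.46 CPM, untreated heterozygous mouse 3, had only 39.8 CPM of summed Y-linked genes. All other tumours with Y-linked expression, treated ones included, had 183 to 502 CPM of them. In both classes 8 of the 10 genes were lower in every heterozygous tumour, with Meg3 and Dlk1 the exceptions, and each class has a group with 1 mouse. Groups this small separate easily. The share of all genes was not computed for these classes or with a library left out.

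Markers of several cell types differed between these groups. The 10 fibroblast markers summed to 4209 to 7039 CPM in untreated heterozygous tumours, against 11145 to 17351 CPM in untreated wild-type tumours. All 10 of the markers had lower means, 9 without overlap, at a median log2 fold change of -1.51. In bulk tissue, fewer cells of a type and less RNA per cell cannot be told apart. Col1a1, Col1a2 and Col3a1 made up most of the fibroblast sum, at means of 4802, 3865 and 3882 CPM in untreated wild-type tumours. H19 per 1000 CPM of the fibroblast markers was 1.30 to 1.96 in untreated heterozygous and 8.39 to 14.9 in untreated wild-type tumours. What part fibroblasts have in the level of H19 was not tested. Igf2 per 1000 CPM of the same markers was 0.113 to 1.75 in heterozygous and 2.60 to 14.6 in wild-type tumours.

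Pericyte and smooth muscle markers summed to 227 to 408 CPM in untreated heterozygous and 471 to 995 CPM in untreated wild-type tumours, and endothelial markers to 219 to 348 CPM in heterozygous and 358 to 614 CPM in wild-type tumours. The hepatocyte list summed to 263 to 365 CPM in heterozygous and 429 to 1079 CPM in wild-type tumours, and the adipocyte list to 12.5 to 16.5 CPM in heterozygous and 17.9 to 29.6 CPM in wild-type tumours. None of these sums overlapped, though many single markers did. Of the pericyte and smooth muscle markers 8 of 8 were lower, 3 of them without overlap. Of the endothelial markers 7 of 8 were lower, 4 of them without overlap. Of the tested hepatocyte markers 6 of 7 were lower, 2 of them without overlap. Of the tested adipocyte markers 3 were lower and 2 higher, with 0 lower without overlap. Islet markers, which include Ins2 next to Igf2, summed to 0.139 to 3.37 CPM in heterozygous and 14 to 238 CPM in wild-type tumours, and all 8 lay lower without overlap. Of 8 acinar markers, 7 lay lower without overlap and DESeq2 called 6. One of them, Ctrb1, a chymotrypsinogen, had 0.0648 to 0.0794 CPM in heterozygous and 0.816 to 271 CPM in wild-type tumours. The other, Cela1, made up most of the acinar sum in heterozygous tumours, which was 6.50 to 32.4 CPM, against 8.43 to 478 CPM in wild-type tumours. Macrophage markers were lower for 8 of 8, 1 of them without overlap. Other lists leaned higher in heterozygous tumours. Epithelial and lymphocyte markers were each higher for 7 of 8, with 0 higher without overlap. Schwann cell markers were higher for 5 of 6, 2 of them without overlap, and DESeq2 called 1.

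Skeletal muscle is an adult tissue known for H19, and only 4 of its 10 markers passed the filter on low counts. Its markers summed to 9.29 to 32.0 CPM in heterozygous and 3.31 to 9.20 CPM in wild-type tumours, most of it Tnni2 at 7.73 to 29.8 CPM in heterozygous and 0.907 to 7.26 CPM in wild-type tumours. Tnnt3 had 0.218 to 0.593 CPM in heterozygous and 0.415 to 1.19 CPM in wild-type tumours, and Myh2 was at 0 in 5 of these 6 libraries. The 7SL and 7SK RNAs took 8.19% to 9.59% of the counts in heterozygous and 5.53% to 7.87% in wild-type tumours. What part these tissue and RNA differences have in the levels of the imprinted genes was not tested.

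**Figure D2:**
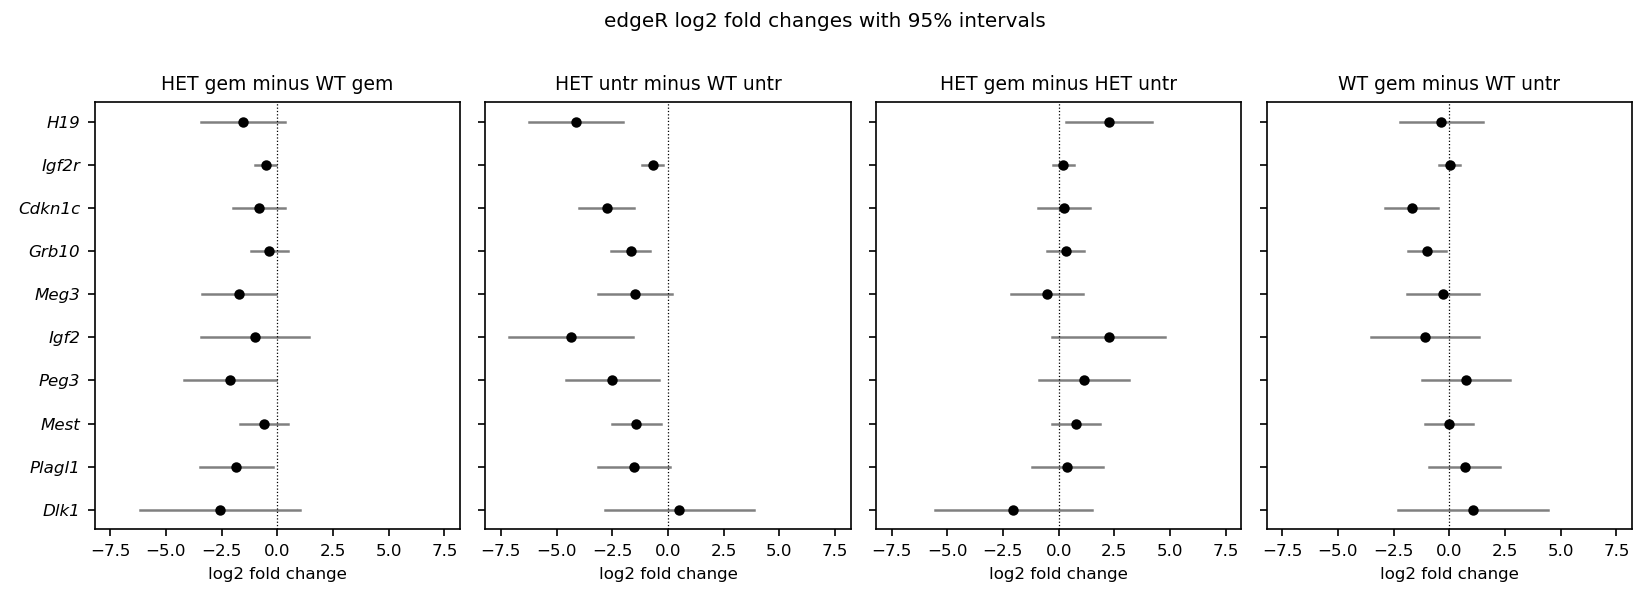
edgeR log2 fold changes (horizontal axes) of the 10 imprinted genes with 95% intervals, for genotype in gemcitabine-treated and in untreated mice and for gemcitabine in heterozygous and in wild-type mice. Points left of the dotted line are lower in the group named first; in untreated mice all genes but Dlk1 lie left of it, from -4.34 for Igf2 to -0.69 for Igf2r.

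In gemcitabine-treated mice the same genotypes were compared under drug, and there the groups overlapped for all 10 genes, while 6.59% of all genes tested were lower and 7.12% higher without overlap. H19 had 45.0, 78.5 and 17.0 CPM in treated heterozygous tumours, against 341, 27.1 and 40.8 CPM in treated wild-type tumours. Wild-type mouse 1 was the highest of all 12 tumours, while wild-type mice 2 and 3 lay among the heterozygous values. The log2 fold change was -1.54 ± 0.86, with an interval of -3.44 to 0.35, and it was 0.47 without wild-type mouse 1.

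Igf2 and Peg3 had a similar spread in the treated wild-type group. Igf2 had 33.0, 22.3 and 6.44 CPM in treated heterozygous tumours and 102, 6.30 and 15.7 CPM in treated wild-type tumours. Peg3 had 10.2, 31.4 and 49.5 CPM in heterozygous and 345, 22.3 and 30.3 CPM in wild-type tumours. Both sets of values overlap, with wild-type mouse 1 above the other treated mice. All 10 genes were higher in that tumour than the mean of wild-type mice 2 and 3, from 1.37 times for Igf2r and 1.82 times for Cdkn1c to 10.1 times for H19, 13.1 times for Peg3 and, on few reads, 53.9 times for Dlk1. Among all 12 tumours it ranked first for 6 of the 10. The fibroblast markers of the same tumour summed to 14782 CPM, against 7021 and 6033 CPM in the other 2 mice of its group. Between the treated genotypes, 6 fibroblast markers were lower and 4 higher in heterozygous tumours, with 0 without overlap. Macrophage markers were higher for 8 of 8, 5 of them without overlap. They summed to 1089 to 1622 CPM in heterozygous and 542 to 979 CPM in wild-type tumours. Lymphocyte markers were higher for 8 of 8, 1 of them without overlap. Epithelial markers were lower for 7 of 8, 3 of them without overlap. The part of these cell types in the levels of the 10 genes was not tested.

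All 10 genes had lower means in treated heterozygous than in treated wild-type tumours, with a median log2 fold change of -1.27 against -0.03 over all genes tested. Without wild-type mouse 1, 5 of 10 had lower means, the median was 0.06, and H19, Igf2, Dlk1, Peg3 and Grb10 had the opposite sign. None passed by edgeR, where 0.00416% of all genes did, or by DESeq2 (0.985%), and 4 were lower at an unadjusted p below 0.05 (2.89% of all genes); edgeR adjusted p-values lay between 0.61 and 0.93. Igf2r had 232, 180 and 131 CPM in heterozygous and 314, 227 and 231 CPM in wild-type tumours, and a log2 fold change of -0.51 ± 0.21, its overlap coming from treated heterozygous mouse 1. Plagl1 had 3.59, 5.68 and 2.99 CPM in heterozygous and 29.8, 8.65 and 5.23 CPM in wild-type tumours. Cdkn1c had 4.2, 2.75 and 4.90 CPM in heterozygous and 10.01, 4.65 and 6.35 CPM in wild-type tumours. Both overlapped in a single pair of mice.

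**Figure D3:**
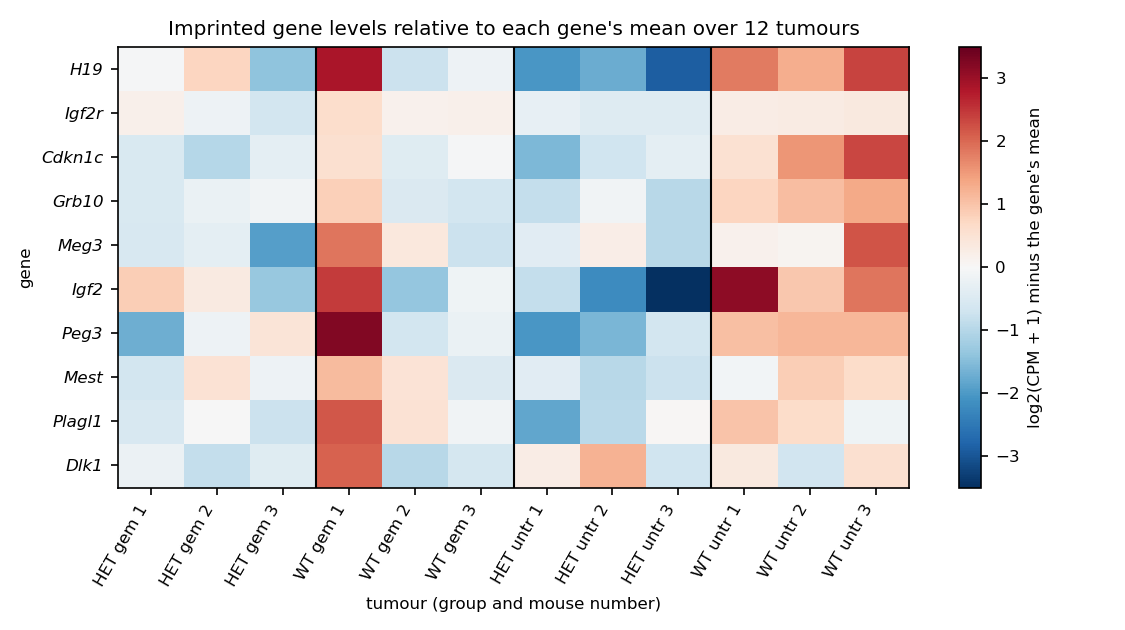
Level of each imprinted gene (rows) in each tumour (columns), as log2(CPM + 1) minus the gene's mean over 12 tumours; red is above and blue below the mean. H19, Igf2 and Peg3 are blue in all 3 untreated heterozygous tumours, and treated wild-type mouse 1 is red for all 10 genes.

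Gemcitabine was then compared with no drug within each genotype. In heterozygous mice H19 was at 45.0, 78.5 and 17.0 CPM with gemcitabine, against 10.7, 13.3 and 5.46 CPM in untreated mice. The groups did not overlap, and the log2 fold change was 2.25 ± 0.88 with an interval of 0.31 to 4.2. All 3 treated heterozygous values lay below the 113 CPM of the lowest untreated wild-type tumour, and their mean was 46.8 ± 30.8 CPM. H19 was 1 of 10 genes higher without overlap, a state shared by 6.64% of all genes.

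Igf2, with 33.0, 22.3 and 6.44 CPM in treated and 9.51, 3.07 and 0.477 CPM in untreated heterozygous tumours, had a log2 fold change of 2.24 ± 1.16 and overlapped in a single pair of mice. Of the 10 genes, 8 had higher and 2 had lower fitted levels with drug, with a median of 0.35 against -0.03 over all genes. The 2 lower ones were the chromosome 12 neighbours Dlk1 (-2.04 ± 1.61) and Meg3 (-0.51 ± 0.74). None passed by edgeR (0.00831% of all genes) or by DESeq2 (0.706%), 1 was higher at an unadjusted p below 0.05 (4.42% of all genes), and adjusted p-values lay between 0.60 and 0.95. Fibroblast markers summed to 4250 to 8372 CPM in treated and 4209 to 7039 CPM in untreated heterozygous tumours. H19 per 1000 CPM of them was 3.999 to 11.9 with drug and 1.30 to 1.96 without. Macrophage markers summed to 1089 to 1622 CPM in treated and 541 to 746 CPM in untreated heterozygous tumours, with 7 of 8 higher without overlap and 5 at an unadjusted p below 0.05. Islet markers summed to 0.963 to 50.5 CPM in treated and 0.139 to 3.37 CPM in untreated heterozygous tumours, with 2 of 8 higher without overlap, 6 at an unadjusted p below 0.05 and 2 called by DESeq2. The part of these cell types in the level of H19 was not tested.

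In wild-type mice the treated tumours overlapped the untreated ones for all 10 genes, while 7.17% of all genes tested were lower and 6.53% higher without overlap. Cdkn1c had 10.01, 4.65 and 6.35 CPM with gemcitabine, against 9.90, 20.8 and 37.3 CPM without, a log2 fold change of -1.69 ± 0.54. Grb10 had 124, 47.9 and 44.0 CPM with drug and 116, 147 and 174 CPM without, at -1.02 ± 0.39. In both genes treated mouse 1 was the library that reached into the untreated range. H19 was at 341, 27.1 and 40.8 CPM with drug and 166, 113 and 243 CPM without, for a log2 fold change of -0.35 ± 0.84.

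Treated wild-type mouse 1 decided this comparison too. With it, 6 genes had lower and 4 higher fitted levels under drug, with a median of -0.15 against 0.01 over all genes. Without it, all 10 had lower means, the median was -1.63, and H19 had a log2 fold change of -2.36. H19, Igf2, Igf2r, Peg3, Cdkn1c and Grb10 then lay lower without overlap. Smaller groups separate more easily, and the share of all genes without overlap was not computed for this reduced set. No gene of the genome passed by edgeR in this comparison, 2 of the 10 were lower at an unadjusted p below 0.05 (4.55% of all genes), and DESeq2 called none of the 10 and 0.499% of all genes. Adjusted p-values of the 10 by edgeR lay between 0.56 and 0.99. Fibroblast markers summed to 6033 to 14782 CPM in treated wild-type and 11145 to 17351 CPM in untreated wild-type tumours, with mouse 1 again at the top of the treated group. All 10 of these markers were lower with drug, 4 of them without overlap, and DESeq2 called 2. Endothelial and islet markers were each lower for 8 of 8, 4 of them without overlap. Epithelial markers were higher for 6 of 8, 1 of them without overlap. The part of these cell types in the levels of the 10 genes was not tested.

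The difference of the 2 gemcitabine effects, heterozygous minus wild-type, was 2.61 ± 1.21 for H19, 3.34 ± 1.60 for Igf2, 1.93 ± 0.75 for Cdkn1c and 1.33 ± 0.54 for Grb10 on the log2 scale. None of the 10 passed by edgeR (0.00831% of all genes) or DESeq2 (2.71%), with 2 higher at an unadjusted p below 0.05 (7.14% of all genes), and these 4 had edgeR adjusted p-values of 0.33 to 0.42. The genotype effect averaged over both treatments was -2.85 ± 0.64 for H19, -1.79 ± 0.38 for Cdkn1c, -2.67 ± 0.83 for Igf2, -2.32 ± 0.67 for Peg3, -1.02 ± 0.27 for Grb10 and -0.60 ± 0.15 for Igf2r. All 10 were lower on that average, none passed by edgeR (0.0332% of all genes), 9 were at an unadjusted p below 0.05 (3.96% of all genes were lower there), and these 6 passed by DESeq2, which called 1.26% of all genes. Without treated wild-type mouse 1 the average was -1.84 for H19, -1.71 for Igf2 and -1.15 for Peg3, and the difference of effects was 4.62 for H19 and 5.24 for Igf2. The average uses the same tumours as the 2 genotype comparisons above. Averaged over genotypes, gemcitabine gave a median log2 fold change of 0.25, with 6 genes higher and 4 lower, and the median was -0.30 without treated wild-type mouse 1. None of the 10 passed by edgeR (0.00831% of all genes) or DESeq2 (0.121%), and none was at an unadjusted p below 0.05 by edgeR (2.2% of all genes were lower and 2.25% higher there).

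The 10 genes tended to be high in the same tumours. Of their 45 pairs, 44 had a positive Pearson correlation of log2 CPM over the 12 tumours and 34 had one above 0.5, with a median of 0.609. These are descriptions over libraries that share groups and the same effective sizes, and the share over all gene pairs was not computed. For deviations from the group means, Igf2r and Peg3 went from 0.598 to 0.044 and Igf2 and Cdkn1c from 0.506 to -0.301. Igf2 and Dlk1 rose from 0.380 to 0.753. Over all tumours, the member closest to H19 was Igf2, at 0.920. This pair had 0.890 without the 2 tumours farthest from the median of H19. For deviations from the group means it had 0.793, below the 0.809 of H19 and Meg3. Over all tumours, the correlation of H19 with the others ran down from Igf2r (0.845), Grb10 (0.844), Peg3 (0.777), Mest (0.760), Meg3 (0.706), Cdkn1c (0.697), Plagl1 (0.683) to Dlk1 (0.321). For deviations from group means, the correlation with H19 was lower than over all tumours for 7 of the 9 genes, down to 0.157 for Cdkn1c, and higher for Meg3 (0.809) and Dlk1 (0.739). Peg3 and Plagl1 had 0.822 over all tumours and 0.676 within groups.

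Leaving out predicted (Gm), RIKEN and unnamed genes, the 8 genes most like H19 in this measure, at ranks 3 to 7 and 9 to 11 of all genes tested, were Igf2 (0.920), Lrrc3 (0.918), Adamts9 (0.917), Rftn2 (0.915), Igfbp4 (0.915), Ak1 (0.912), Lama1 (0.904) and Dpp6 (0.904). Adamts9 encodes a matrix protease, Igfbp4 an IGF-binding protein and Lama1 a laminin chain. The same measure was 0.808 between H19 and the type I collagen gene Col1a1 and 0.378 between H19 and Xist. For deviations from the group means these were 0.825 and 0.222. Although H19 and Igf2 ran together, their ratio did not stay fixed: per kilobase of exon H19 was between 2.38 times (untreated wild-type mouse 1) and 26.7 times (untreated heterozygous mouse 3) the level of Igf2.

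**Figure D4:**
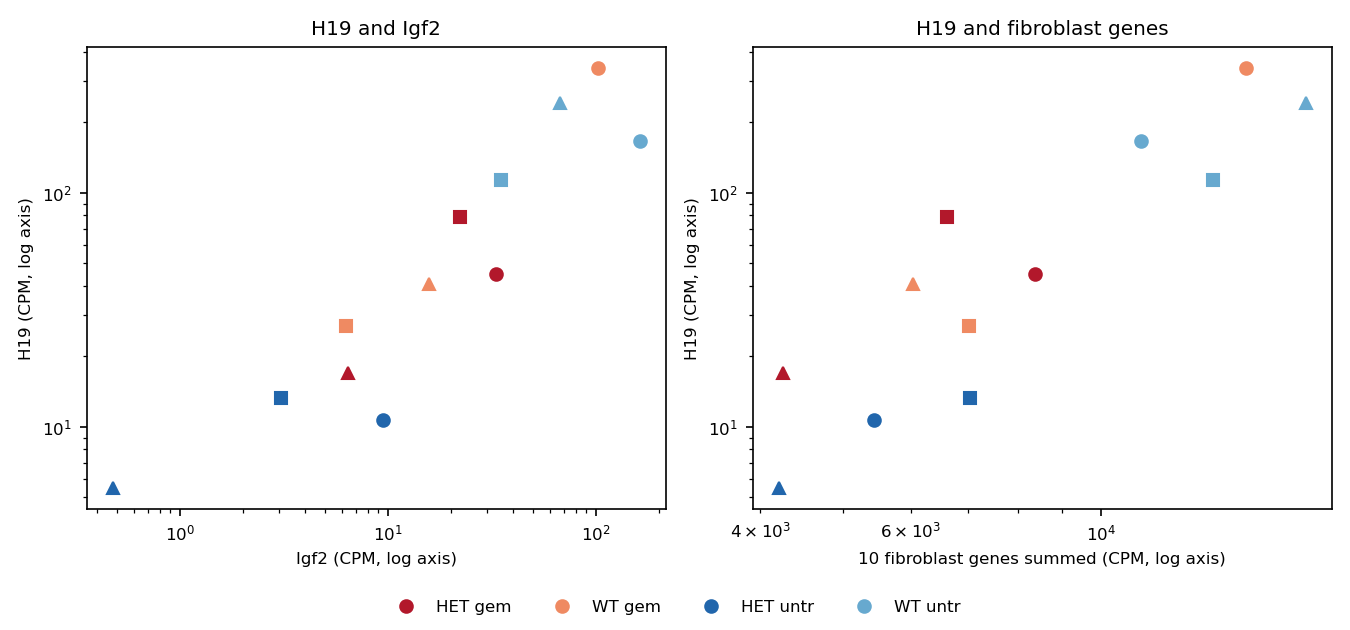
H19 against Igf2 (left) and against the summed level of 10 fibroblast genes (right) in 12 tumours, in CPM on log axes; each point is a mouse, coloured by group and shaped by mouse number as in the plot of levels. H19 spans 5.46 to 341 CPM along both; at fibroblast sums of 7039 and 7021 CPM, H19 was 13.3 CPM in an untreated heterozygous tumour and 27.1 CPM in a treated wild-type tumour, in this order.

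Neighbours in the same imprinted domains were examined next. In the untreated genotype comparison that the counts below refer to, 6.65% of all genes were lower and 5.51% higher at an unadjusted p below 0.05, and DESeq2 called 2.92%. On chromosome 12, Meg3 is followed by the noncoding RNAs Rian and Mirg, and Rtl1, a retrotransposon-derived gene read from the opposite strand, lies nearby. Meg3 correlated with Rian at 0.942, with Mirg at 0.935 and with Rtl1 at 0.855, and with its paternally expressed neighbour Dlk1 at 0.468. Without untreated wild-type mouse 3 and treated wild-type mouse 1 these were 0.808, 0.850, 0.556 and 0.02. Rian had 26.2, 30.3 and 23.0 CPM in untreated heterozygous tumours and 35.4, 44.2 and 151 CPM in untreated wild-type tumours, and untreated wild-type mouse 3 was its highest library, as for Meg3. Of 7 listed neighbours of Dlk1 and Meg3, 6 were lower in untreated heterozygous tumours (median -1.29). None passed by edgeR or DESeq2, and 2 were lower and 1 higher at an unadjusted p below 0.05. The smallest p-values were those of Wars (log2 fold change 0.61 ± 0.21), Dio3 (-1.52 ± 0.61) and Rian (-1.54 ± 0.69).

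**Figure D5:**
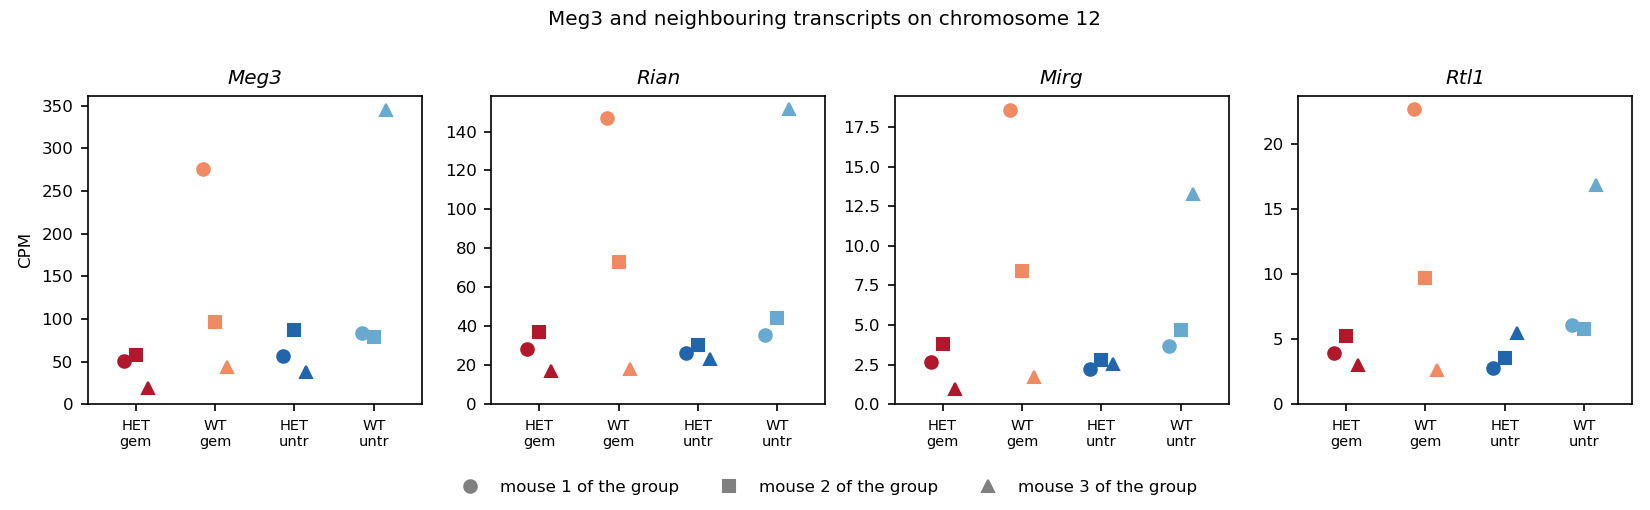
Meg3 and 3 transcripts of the same domain on chromosome 12 in CPM (vertical axes, from 0) by group; each point is a mouse. Treated wild-type mouse 1 and untreated wild-type mouse 3 are the 2 highest tumours for Meg3, Rian, Mirg and Rtl1 alike, at 276 and 345 CPM for Meg3.

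Peg3 shared its highest tumour, treated wild-type mouse 1, with its neighbours Usp29 and Zim1. The correlation of Peg3 with Usp29 was 0.908, and 0.851 without the 2 tumours farthest from the median of Peg3; with Zim1 it was 0.746 and 0.635. Of 10 tested neighbours of Peg3, Igf2r, Mest and Grb10, 3 were lower and 7 higher in untreated heterozygous tumours, with a median of 0.09 and none called by edgeR or DESeq2. Cobl (1.69 ± 0.62), Usp29 (-2.37 ± 0.97) and Cpa4 (2.29 ± 1.23) had the smallest p-values, and 1 gene in each direction was at an unadjusted p below 0.05.

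Distal chromosome 7 was mixed. Of 14 tested neighbours of H19, Igf2 and Cdkn1c, 4 were lower and 10 higher in untreated heterozygous tumours, with a median of 0.41; none passed by edgeR, 2 were lower and 4 higher at an unadjusted p below 0.05, and DESeq2 called 2. Kcnq1ot1, the noncoding RNA of the Cdkn1c domain, had 900, 504 and 721 CPM in untreated heterozygous tumours, against 397, 544 and 251 CPM in untreated wild-type tumours. Phlda2, a maternally expressed gene beside Cdkn1c that restrains placental growth, had 2.61, 3.56 and 4.47 CPM in heterozygous and 1.7, 1.5 and 1.46 CPM in wild-type tumours. Both run against Cdkn1c in these groups, and over 12 tumours the correlation with Cdkn1c was -0.710 for Kcnq1ot1 and -0.615 for Phlda2. Without untreated wild-type mice 2 and 3 these were -0.506 and -0.325. The smallest p-values of the list were those of Ins2, an islet gene, with 0.0439, 0 and 0.0199 CPM in heterozygous and 0.265, 29.5 and 8.62 CPM in wild-type tumours, of Kcnq1 (1.59 ± 0.48) and of Lsp1 (-1.32 ± 0.43).

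Other genes of the IGF axis were mostly lower in untreated heterozygous tumours, though by less than Igf2. Of 19 tested ligands, receptors, binding proteins and mRNA-binding proteins, 17 were lower and 2 higher, with a median of -0.49. None passed by edgeR, 5 were lower and 1 higher at an unadjusted p below 0.05, and DESeq2 called 2. Igf1, the second IGF ligand, had 51.2, 26.9 and 30.9 CPM in heterozygous and 92.1, 122 and 77.6 CPM in wild-type tumours. Igfbp4 had 197, 360 and 246 CPM in heterozygous and 684, 856 and 1006 CPM in wild-type tumours. Igfbp7 had 490, 513 and 259 CPM in heterozygous and 755, 728 and 642 CPM in wild-type tumours. The groups did not overlap for these 3, with log2 fold changes of -1.42 ± 0.34, -1.67 ± 0.42 and -0.75 ± 0.25. Igfbp5 ran the other way, with a mean of 149 CPM (70.8 to 195) in heterozygous and 55.8 CPM (42.8 to 75.5) in wild-type tumours.

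Imprinted genes outside these domains were split. Of 29 other imprinted genes tested, 17 were lower and 12 higher in untreated heterozygous tumours, at a median of -0.06; none passed by edgeR, 5 were lower and 2 higher at an unadjusted p below 0.05, and DESeq2 called 1, and the list includes the fibroblast gene Dcn. Zfp787 had 37.3, 39.8 and 32.0 CPM in heterozygous and 20.3, 24.9 and 23.6 CPM in wild-type tumours, while Ndn, a growth suppressor expressed from the paternal copy, had 1.67, 2.40 and 2.58 CPM in heterozygous and 3.75, 7.26 and 5.15 CPM in wild-type tumours. Kcnk9 was at 0 in all 3 heterozygous tumours and in wild-type mouse 1. Genes that keep or set imprints, such as DNA methyltransferases, Ctcf and Zfp57, were near even, with 9 of 14 lower at a median of -0.09 and none called by edgeR or DESeq2 or at an unadjusted p below 0.05. In none of the other 6 contrasts did a gene of these 6 lists pass by edgeR, while at most 5 genes of a list in a direction were at an unadjusted p below 0.05 and DESeq2 called at most 3.

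Some counts may hold reads of overlapping genes, since it is not given whether counting used the strand. Igf2r overlaps the antisense RNA Airn, which silences it in cis and had 352 to 994 counts a library against 6521 to 14368 for Igf2r. Mest overlaps the end of Copg2 on the other strand, with 1410 to 3080 counts against 131 to 696 for Mest, so for Mest the partner is the more abundant. Igf2os, opposite Igf2, had at most 68 counts. Without strand, the reads of such a pair cannot be told apart.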

How the data were processed

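The authors deposited expected counts per Ensembl gene, made with RSEM on GRCm38 per the submitters' processing notes; all are whole numbers, and no source used here gives the RSEM version, the annotation or the strand setting. Per the labels, 12 libraries of 1 mouse each fall into 4 groups of 3; whether same-numbered mice are linked is not stated. Symbols, positions and exon lengths came from GENCODE M21. The test was that of edgeR 4.0.16 under R 4.3.3 (TMM, filterByExpr, robust quasi-likelihood model with a mean per group on all 12 libraries; 24065 genes), with Benjamini-Hochberg adjustment over all genes tested and a threshold of 0.05. Intervals are 95% and come from the model; ± is the SE of a log2 fold change or the SD of 3 mice. Correlations used log2 CPM with a prior count of 2. Totals of 39388328 to 56559413 counts set the precision of low genes such as Dlk1, and counting error alone allows up to 3 counts where a library had 0. Alternatives were DESeq2 1.42.0, limma 3.58.1 (voom), other scalings and filters, an Xist covariate, a replicate block and each library left out. The fibroblast scale and the counts without single libraries were added after seeing the data. The 10 genes and the lists were chosen with earlier results of these data known; of each list, up to 3 genes with the smallest p-values are named where none passed, and further neighbours were named after their values were seen.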

Additional observations from a re-analysis of the deposited data

How the results depend on the processing

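Under the alternatives, the number of the 10 genes called moved only with DESeq2, to 4 for genotype in untreated mice and 6 for genotype averaged over treatments, against 0 by edgeR; the cause was not tested. DESeq2 also called more of all genes, 703 against 4 for genotype in untreated mice, 237 against 1 in treated mice, 120 against 0 for gemcitabine in wild-type mice, 170 against 2 in heterozygous mice, 652 against 2 for the difference of effects and 304 against 8 for the genotype average. For genotype in untreated mice, edgeR with no filter on low counts called 10 of all genes, and none of them was an imprinted gene of the set. Of 1040 recomputed fold changes of the 10 genes, 25 had the opposite sign, among 16 of 50 gene and comparison pairs. Dlk1 had 0 to 325 counts a library, so few reads and single mice weigh on its fold changes.

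Genotype in treated mice gave a log2 fold change of 0.16 for Dlk1 with limma voom and 1.16 for Igf2 with an Xist covariate, which among treated mice coincides with the groups. Gemcitabine in wild-type mice gave -1.58 for Dlk1 and -0.35 for Peg3 with limma voom, and -0.073 for Dlk1 with the replicate block. With a replicate block 0 of the 10 genes were called in each comparison. Same-numbered mice of different groups deviated together by more than 0.1 in 4 of 18 pairs (correlations -0.25 to 0.17). These correlations cannot show whether such mice are linked. The cause of these reversals was not tested.

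With each library left out in turn, 0 of the 10 genes were called in every comparison. The log2 fold change of genotype in treated mice then ranged from -2.13 to 0.47 for H19, -1.52 to 0.91 for Igf2, -3.17 to 1.63 for Dlk1, -2.67 to 0.21 for Peg3 and -0.61 to 0.30 for Grb10, each highest without treated wild-type mouse 1. In untreated mice that of Dlk1 ranged from -0.62 to 1.04. Gemcitabine in heterozygous mice gave -0.012 to 0.39 for Igf2r, -0.055 to 1.25 for Plagl1 and -0.12 to 0.61 for Cdkn1c. Gemcitabine in wild-type mice gave -2.36 to 0.13 for H19, -0.14 to 0.11 for Igf2r, -3.14 to 1.64 for Dlk1, -1.27 to 0.77 for Meg3, -1.59 to 1.25 for Peg3, -0.39 to 1.08 for Plagl1 and -0.52 to 0.33 for Mest, each lowest without treated wild-type mouse 1.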
